A study of Homo sapiens with 8 samples.

Results

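Expression of the DDX and DHX RNA helicases was followed in HCT116, an established human line from a colorectal cancer, under transfection of a synthetic mimic of the microRNA miR-8073. Members were the array probes whose gene symbol is DDX or DHX followed by a number. The RNA sensors DDX58 and DHX58 and any Y-linked gene were left out. This gave 57 probes for 52 genes, among 24460 probes on the array and 17559 genes with a symbol. DDX3X was singled out beforehand because it rises with the mimic, so its values are given as a description with no test and it is left out of the counts below unless stated.

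All 8 arrays held RNA of HCT116 cells, a single established line. Of these, 3 arrays were from cells transfected with the miR-8073 mimic, 3 from cells given a microRNA-negative control sequence, and 2 from mock-treated cells, which the study calls a blank. The labels give neither a dose nor a time after transfection, and the study states the time in 2 different ways. Nothing in the labels says that replicates came from separate cultures. The p-values therefore reflect the spread between these arrays only, and this spread may be technical.

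Helicases of the DEAD-box (DDX) and DEAH-box (DHX) families use ATP to open short RNA duplexes, to clamp onto RNA, or to pull proteins off it. They work at each step in the life of an RNA, including splicing, the assembly of ribosomes in the nucleolus, export to the cytoplasm, translation and decay. Many DEAH-box members are switched on by partner proteins with a G-patch domain, and dividing cancer cells depend on the nucleolar members for ribosome production.

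The mature sequence of miR-8073, from RefSeq, is shown because the mimic is the treatment whose effect on the helicases was measured. It lies on the plus strand of chr13:110340968-110340989 (GRCh38.p14) and is 22 bases long. The capitals mark the seed, bases 2 to 8, the stretch through which a microRNA chiefly pairs with its target mRNAs. Sites for this seed were not searched for in the helicase transcripts.
hsa-miR-8073: aCCUGGCAgcagggagcgucgu

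Blank spots averaged 59.8 to 64.3 scanner units, and the correlation of log2 values was 0.993 to 0.996 within groups and 0.983 to 0.993 between groups. All 5 colorectal epithelial markers on the array were above background on all 8 arrays. The summed signal of these markers was 7669 to 9511 on the mimic arrays, 6781 to 8375 on the negative control arrays and 7943 to 8062 on the mock arrays. Of the markers of other cell types, 4 were on the array and all 4 were above background on none.

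Most of the helicases were detected in these cells. A probe was tested when its intensity passed the 95th percentile of blanks on at least 2 arrays, and 44 of the 52 genes (48 of the 57 probes) passed. Of these 44, 43 were above background on all 8 arrays. The exception was DDX60, an interferon-inducible member, which was above background on 1 mimic, 1 negative control and 1 mock array. The 8 genes that did not pass were above background on no array. They included DDX4, a germ cell helicase, DDX25, DDX43 and DDX53, which are known mainly from testis, the interferon-related DDX60L, DHX33, DHX34 and DDX26B. The last carries the current symbol INTS6L and is not a helicase, although its older name put it among the members.

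Signals are normalized intensities in scanner units after background correction. A log2 change, given ± its standard error, is a difference of log2(signal + 50), so for dim probes it is smaller than the change in signal. P-values are from limma, 2-sided, with Benjamini-Hochberg adjustment across the 12904 tested probes and a threshold of 0.05. Each array held RNA taken from many cells together, so a change in all cells and a larger change in some of them cannot be told apart.

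Helicases differed in both directions between mimic and negative control, with more higher than lower. Of the 43 tested genes other than DDX3X, 8 rose (DDX10, DDX18, DDX1, DHX9, DHX32, DDX56, DDX17 and DDX49) and 4 fell (DHX37, DDX21, DDX11 and DHX40). These calls made up 27.9% of the 43, against 16.8% of all 10260 tested genes (8.13% rose and 8.67% fell), and the difference between these shares was not tested. Counting DDX3X would make this 13 of 44, which is 29.5%. By direction, the falls (4 of the 43) were close to the share of all genes that fell. The rises (8 of the 43) were above the share of all genes that rose, a difference also not tested. The median change of the 43 genes was 0.058, with quartiles of -0.029 and 0.23, while that of all tested genes was 0.0038. With median centring in place of quantile normalization, the share of falls among the calls over all genes was 35.5%, where it was otherwise 51.6%. Changes ran from -0.61 for DHX37 to 0.74 for DDX10.

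The counts depended on the arrays, the scaling and the background correction. The count of genes that rose was 5 without mimic array 3 or negative control array 2, 6 without any 1 of the other arrays of these groups, and 9 without either mock array. The count that fell was 3 without mimic array 2, 2 without mimic array 1 or 3 or without negative control array 1 or 2, and 1 without negative control array 3. The share of all tested genes that passed fell too, from 16.8% to between 9.06% and 12.1% without 1 mimic or negative control array. The calls of DDX10, DDX18, DDX56, DHX9 and DHX37 stood whichever of the 8 arrays was left out. With median centring, 4 of the 12 calls were kept (DDX10, DHX9, DHX32 and DHX37), and with the authors' log2 values 2 of the 12 (DDX10 and DHX37). DDX1, DDX11, DDX17, DDX18, DDX21, DDX49, DDX56 and DHX40 were lost under both. When background was taken from pixels surrounding the spot instead of the blank spots, limma called 0 helicases (4 higher and 1 lower at an unadjusted p below 0.05), and 0 of all tested genes. The change of DHX37, the largest fall otherwise, was -0.0068 with that background.

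**Figure D1:**
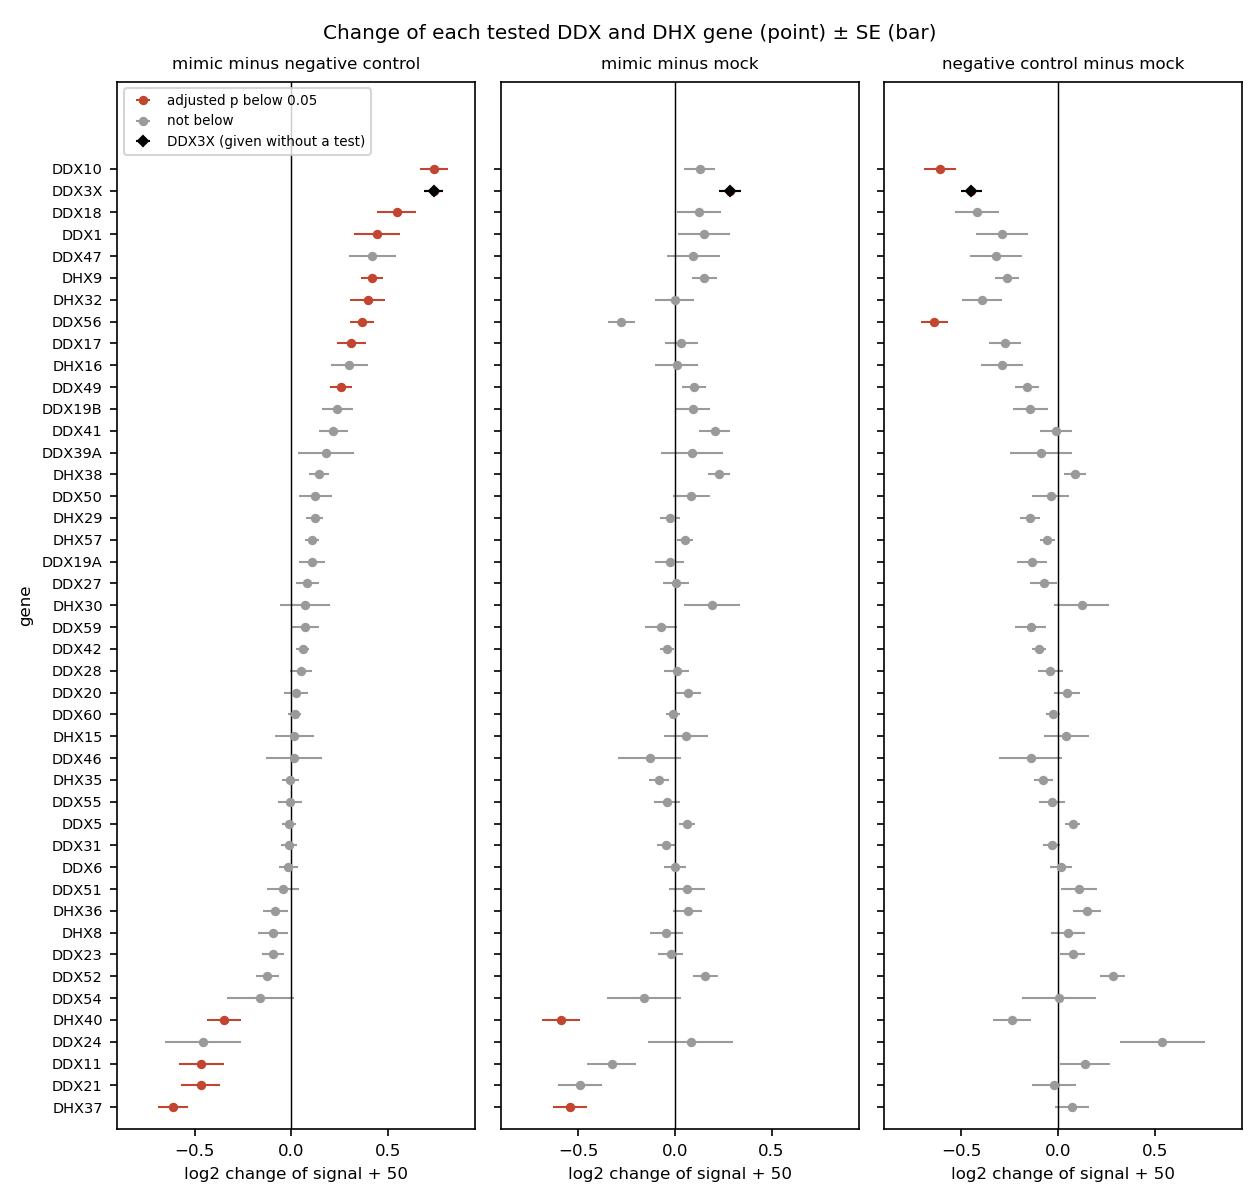
The log2 change of signal + 50 (horizontal axis) of each of the 44 tested DDX and DHX genes (rows, in the order of their change between mimic and negative control) is plotted for mimic minus negative control, mimic minus mock, and negative control minus mock. Points are estimates from limma, bars are standard errors, red marks an adjusted p below 0.05, and the black diamond is DDX3X, which in mimic minus negative control lies at 0.73, next to DDX10 at 0.74.

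DDX3X, an X-linked DEAD-box helicase that helps ribosomes start on mRNAs with structured leaders, was higher on each mimic array than on any control array. It had 120.1, 133 and 122 scanner units on the mimic arrays, against 56.5, 52.3 and 56.3 on the negative control arrays and 100.4 and 86.5 on the mock arrays. The lowest mimic value lay above the highest mock value, and both mock values lay above all 3 negative control values. Its mean was 125 ± 6.83 with the mimic (SD, n = 3), 55.0 ± 2.35 with the negative control (n = 3) and 93.5 ± 9.86 in mock (n = 2). Mimic over negative control was 2.27-fold, with a log2 change of 0.73 ± 0.050 (SE). Mimic over mock was 1.34-fold (0.29 ± 0.056). Negative control minus mock was -0.45 ± 0.056.

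Set against the rest of the family, DDX3X stood near the top whenever the mimic was on top of the ratio. It ranked 2 of 44 in mimic against negative control, after DDX10, and 1 of 44 in mimic against mock, ahead of DHX38. In negative control against mock it ranked 42 of 44. Of all tested genes, 42 (0.409%) had a change as high or higher in mimic against negative control, and 400 (3.9%) in mimic against mock. Since DDX3X was chosen for its rise with the mimic, these ranks and shares only describe it and are no test. Relative to its own mean over the 8 arrays, DDX3X lay at 0.31, 0.41 and 0.32 on the mimic arrays, at -0.37, -0.43 and -0.37 on the negative control arrays, and at 0.13 and -0.0091 on the mock arrays (log2). The median of the other 43 genes stayed within 0.021 to 0.032 on the mimic arrays, -0.046 to -0.022 on the negative control arrays and 0.026 to 0.037 on the mock arrays. DDX3X was measured by 1 probe, and its related gene on the Y chromosome was not examined, so any shared signal was not tested.

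**Figure D2:**
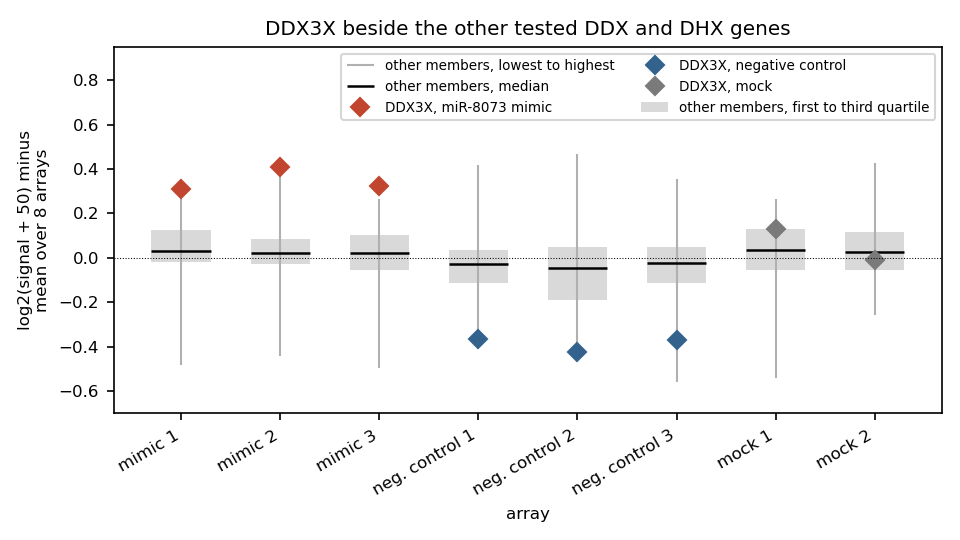
For each array (horizontal axis), the vertical axis gives log2(signal + 50) minus the gene's mean over the 8 arrays. Diamonds are DDX3X, grey bars span the interquartile range of the other 43 tested DDX and DHX genes, black lines are their median and thin lines their range. DDX3X lies above the grey bar on the 3 mimic arrays and below it on the 3 negative control arrays, while the median of the others stays between -0.046 and 0.037.

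The 15 tested helicases of ribosome biogenesis gave 6 of the 12 calls, 4 higher and 2 lower. This was 40% of the list, where 16.8% of all tested genes passed (8.13% higher and 8.67% lower), a difference that was not tested. Their median change between mimic and negative control was -0.0085. DDX10, whose yeast counterpart works on the small ribosomal subunit, was the member that rose most. Its signal was 125, 121 and 112 with the mimic, against 58.8, 54.2 and 42.8 with the negative control and 96.0 and 115 in mock. The negative control arrays were low and did not overlap the mimic arrays, while mock array 2 lay within the mimic range. The mimic was 2.31-fold higher than the negative control (log2 change 0.74 ± 0.073, adjusted p = 0.00133).

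DDX18, needed for ribosomal RNA processing, had 522, 661 and 536 on the mimic arrays, 379.8, 342 and 407 on the negative control arrays and 563 and 477 on the mock arrays. Mimic and mock overlapped and the negative control lay below both. It rose 1.52-fold over the negative control (0.54 ± 0.10, adjusted p = 0.0138). DDX56, another nucleolar helicase, had 345, 389 and 355 with the mimic, against 256, 273 and 282 with the negative control and 421 and 479 in mock. Here the mimic arrays formed a middle level, above every negative control array and below both mock arrays. The rise over the negative control was 1.34-fold (0.37 ± 0.062, adjusted p = 0.00944).

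DDX49, which acts on precursors of ribosomal RNA, had 184, 168 and 179 with the mimic, 143, 127 and 151 with the negative control and 161 and 163 in mock. Every mimic array was higher than every control array, although the rise over the negative control was only 1.26-fold (0.26 ± 0.055, adjusted p = 0.022). The call of DDX49 was lost without mimic array 1 or 3 or negative control array 1 (adjusted p = 0.0602 to 0.0684).

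In the opposite direction, DHX37 was the helicase that fell most. It is a DEAH-box enzyme that helps release a small nucleolar RNA during assembly of the small subunit. It had 60.2, 50.3 and 57.5 scanner units with the mimic, against 132, 107 and 98.8 with the negative control and 103 and 105 in mock. The mimic arrays were all lower than the 5 control arrays, and the control groups overlapped. The means were 56.0 ± 5.12 with the mimic and 113 ± 17.5 with the negative control (SD, n = 3 each), a log2 change of -0.61 ± 0.077 (adjusted p = 0.00328).

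DDX21, an abundant nucleolar helicase that couples ribosomal RNA transcription and processing, had 727, 785 and 605 with the mimic, 1041, 905 and 1033 with the negative control and 944 and 1074 in mock. No mimic array reached a control array. The log2 change was -0.47 ± 0.10 (adjusted p = 0.0219), and the call was lost without mimic array 1 or negative control array 1 or 3 (adjusted p = 0.0501 to 0.0748). The other 9 tested genes of the list did not pass. The brightest of them, DDX47, had 1352, 1196 and 1322 with the mimic, against 1105, 843 and 925 with the negative control and 1371 and 1053 in mock. Its change was 0.42 ± 0.12 (adjusted p = 0.0584). DDX24, of the large subunit, was chosen after its values were seen. It had 434, 659 and 607 with the mimic, 778, 885 and 705 with the negative control and 414 and 664 in mock. The arrays of the mimic and of mock spread widely, and the change of -0.46 ± 0.20 did not pass (adjusted p = 0.158).

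**Figure D3:**
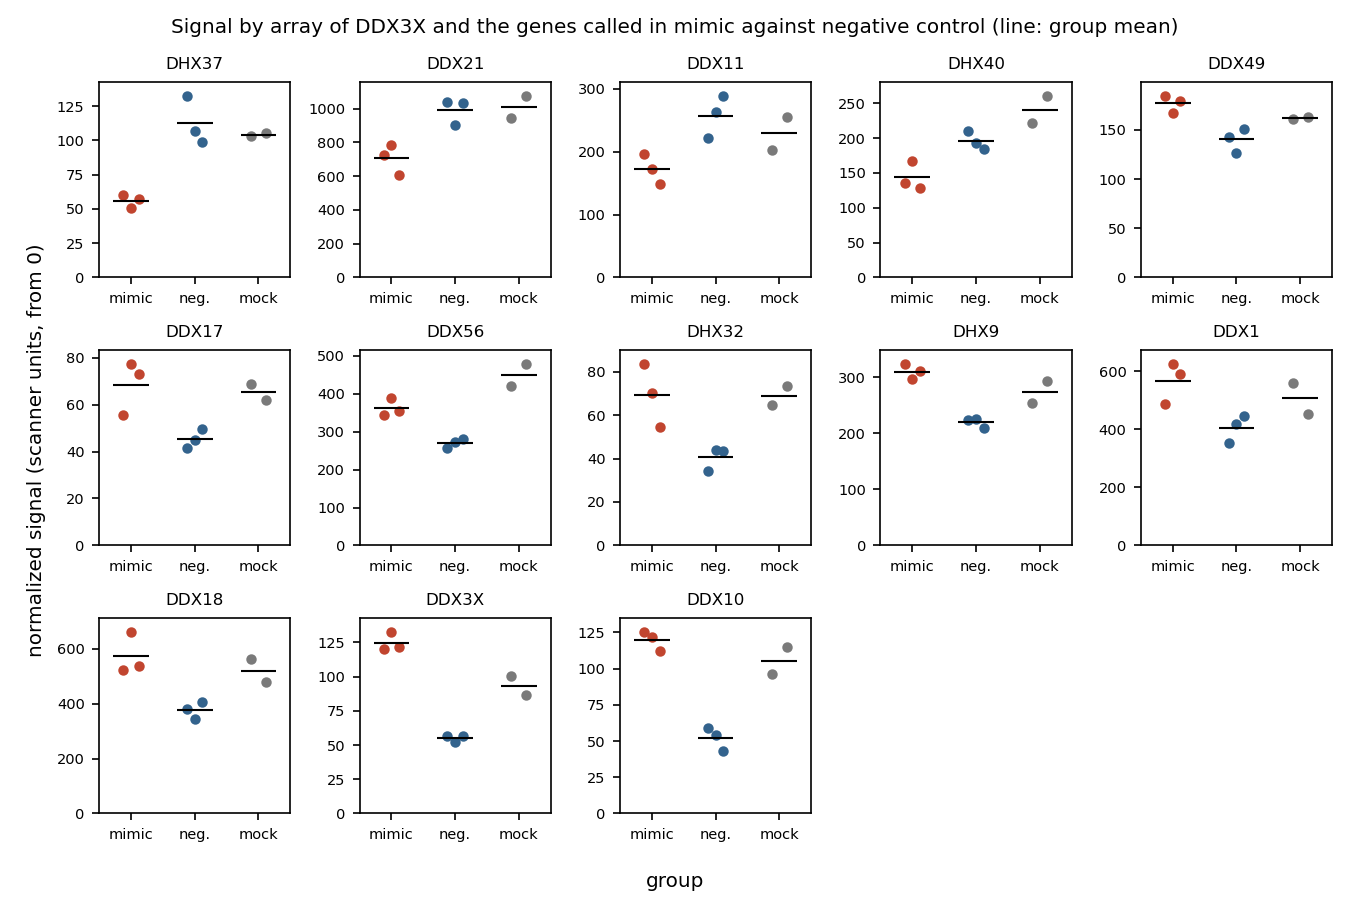
Normalized signal in scanner units (vertical axes, from 0) is plotted by group for the 12 DDX and DHX genes past the threshold in mimic against negative control and for DDX3X, ordered from the largest fall to the largest rise. Each point is 1 array (3 mimic, 3 negative control, 2 mock) and lines are group means. DHX37 lies at 50.3 to 60.2 on the mimic arrays, below all control arrays, while DDX10 lies at 42.8 to 58.8 on the negative control arrays, below all others.

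Among the 11 tested helicases of mRNA export, translation and decay, 10 remain without DDX3X. Of these, 2 rose (DHX9 and DDX1) and 0 fell (0 at an unadjusted p below 0.05 with limma), which is 20% of the 10 where 16.8% of all tested genes passed. Their median change was 0.11, and 8 of the 10 had a positive change (80%), where 51.4% of all tested genes did. DHX9, also called RNA helicase A, unwinds double-stranded RNA and takes part in export and translation. Its signal was 324, 297 and 311 with the mimic, against 224, 226 and 209 with the negative control and 255 and 294 in mock. Every mimic array was above every control array. The rise over the negative control was 1.41-fold (0.42 ± 0.057, adjusted p = 0.00429).

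DDX1, a partner of the tRNA ligase complex, had 487, 624 and 590.2 with the mimic, 351, 416 and 444 with the negative control and 560.2 and 452 in mock. The mimic arrays were above the negative control arrays and overlapped mock. The change of 0.44 ± 0.12 passed narrowly (adjusted p = 0.0464) and was lost without mimic array 2 or 3 or any 1 of the negative control arrays (adjusted p = 0.0638 to 0.13). The brightest gene of the list, DDX39A, a helicase of mRNA export, had 1429.8, 1425 and 1195 with the mimic, against 1205, 1055 and 1304 with the negative control and 1517 and 1048 in mock, and these overlapped (change 0.18 ± 0.14, adjusted p = 0.449).

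DDX6 works in mRNA decay and in the translational repression that follows microRNA binding, and was looked at after its values were seen. Its probe was dim, reaching at most 16.4 with the mimic, 15.9 with the negative control and 16.2 in mock. The groups overlapped, and the change of -0.015 ± 0.051 did not pass the test (adjusted p = 0.881).

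The share of splicing helicases that passed was close to that of all genes. Of 12 tested, 1 rose (DDX17) and 1 fell (DHX40), 16.7% against 16.8% of all tested genes, with a median change of 0.014 between mimic and negative control. DDX17, a close relative of DDX5 that serves both transcription and splicing, had 55.4, 77.3 and 72.9 with the mimic, against 41.7, 44.9 and 49.6 with the negative control and 68.9 and 62.0 in mock. The mimic arrays were above the negative control arrays, and both mock arrays lay within the mimic range. The rise was 1.51-fold (0.31 ± 0.075, adjusted p = 0.0325), and its call was lost without mimic array 2 or 3 or any 1 of the negative control arrays (adjusted p = 0.06 to 0.104).

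DDX5, the brightest of all the members, is a splicing helicase and transcriptional cofactor. It had 1695, 1729 and 1729 with the mimic, against 1739.9, 1672 and 1783 with the negative control and 1633 and 1649 in mock. Mimic and negative control overlapped, and the change was -0.011 ± 0.035 (adjusted p = 0.876). DDX41, a spliceosome helicase, and DHX38, the human counterpart of yeast Prp16, were above all 5 control arrays on all 3 mimic arrays without passing the test. These were picked out after their values were seen. DDX41 had a change of 0.22 ± 0.073 (adjusted p = 0.0889) and DHX38 one of 0.14 ± 0.050 (adjusted p = 0.0972) against the negative control.

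DHX40 was placed in the splicing list, although the role of this DEAH-box protein is little defined, so the only fall in that list is not one of an established splicing helicase. It gave different answers with its 2 probes. The brighter had 136, 167 and 128 with the mimic, against 211, 193 and 185 with the negative control and 221 and 260.4 in mock, so that the mimic lay below every control array. The change against the negative control was -0.35 ± 0.087 (adjusted p = 0.0365), a call that was lost without mimic array 1 or 3 or any 1 of the negative control arrays (adjusted p = 0.0657 to 0.114). The dimmer probe had 47.0, 46.5 and 42.4 with the mimic, 32.6, 58.2 and 41.5 with the negative control and 73.1 and 64.4 in mock. Here mimic and negative control overlapped, with a change of 0.027 ± 0.093 (adjusted p = 0.883).

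DDX11, a DNA helicase of sister chromatid cohesion, also had 2 tested probes that disagreed. The brighter had 197, 172 and 149 with the mimic, 221, 263 and 289 with the negative control and 204 and 255 in mock, each mimic array below each control array. Its change was -0.47 ± 0.11 (adjusted p = 0.0345), and the call was lost without mimic array 2 or 3 or negative control array 2 or 3 (adjusted p = 0.0837 to 0.0996). The other probe had 58.9, 61.7 and 54.4 with the mimic, 52.5, 60.0 and 64.1 with the negative control and 53.8 and 49.2 in mock, a change of -0.0059 ± 0.051 (adjusted p = 0.955). DDX11 has near-identical copies in the genome, and which of them each probe binds was not tested. Of the members, 4 had more than 1 tested probe, and those of DDX54 and DDX59 did not pass with either.

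The list of other roles had 4 tested genes with 2 calls (DDX11 and DHX32), 50% where 16.8% of all tested genes passed. This difference was not tested, and the list is small. Its median change was 0.043, and the mitochondrial list had 2 genes with a median of 0.060. DHX32, a DEAH-box relative of undefined function, had 83.6, 70.2 and 54.6 with the mimic, against 34.3, 43.8 and 43.7 with the negative control and 64.9 and 73.2 in mock. The mimic arrays were above the negative control arrays, and both mock arrays lay within their range. It rose 1.71-fold (0.39 ± 0.091, adjusted p = 0.0285), a call lost without mimic array 1 or 2 or any 1 of the negative control arrays (adjusted p = 0.0566 to 0.0927). The helicases of mitochondria, DDX28 and DHX30, which serve the mitochondrial ribosome, had changes of 0.050 ± 0.057 (adjusted p = 0.603) and 0.070 ± 0.13 (adjusted p = 0.76). DHX30, the brighter, had 402, 268 and 375 with the mimic, 339.9, 344 and 295 with the negative control and 293 and 297 in mock, with overlap of all groups.

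**Figure D4:**
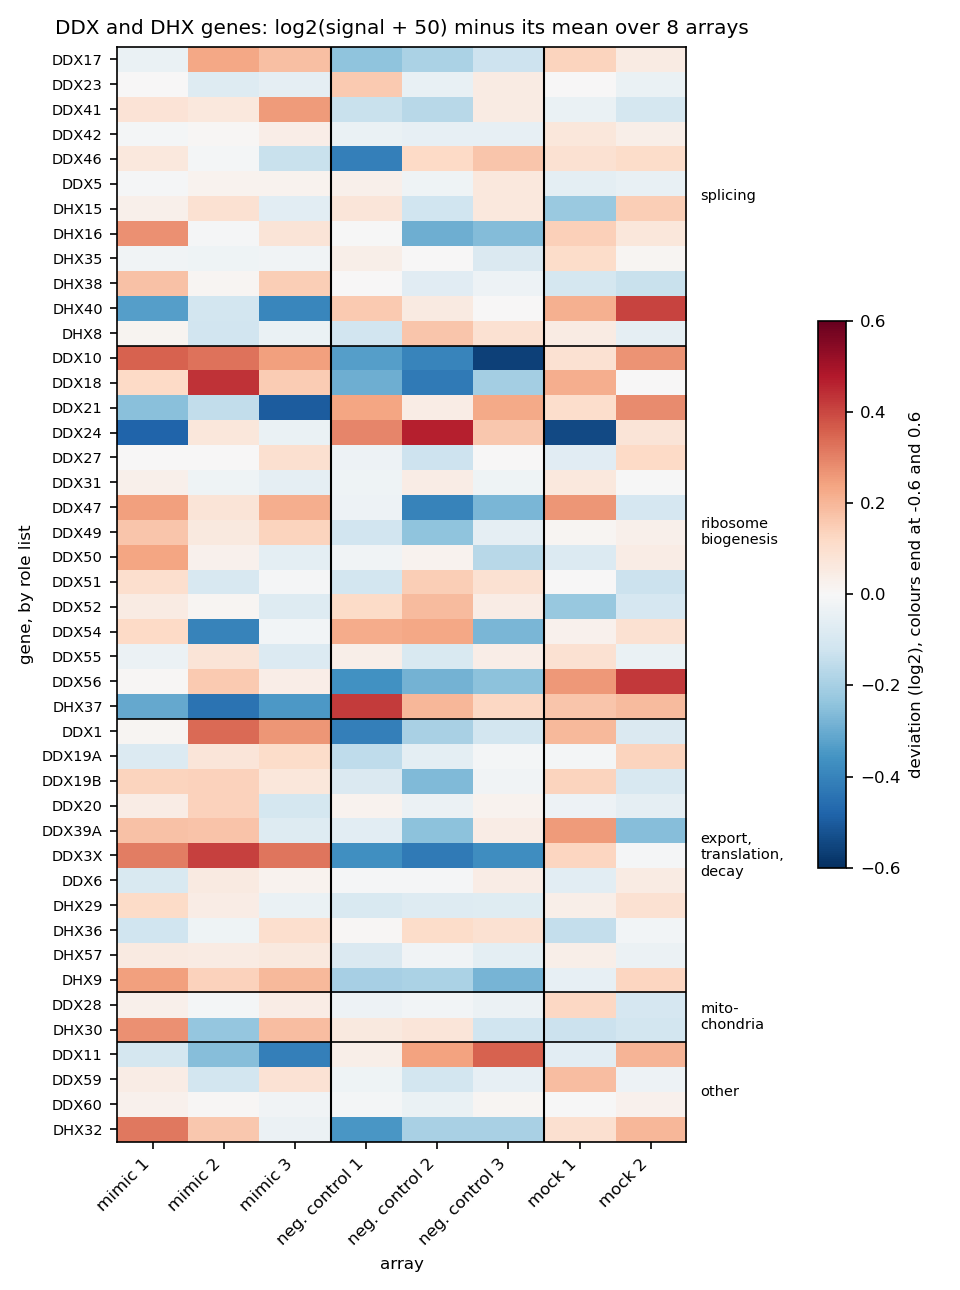
Each row is 1 of the 44 tested DDX and DHX genes, grouped by role, and each column is 1 array (3 mimic, 3 negative control, 2 mock). Colour gives log2(signal + 50) minus the gene's mean over the 8 arrays, red above and blue below, with colours ending at -0.6 and 0.6. The rows of DDX10, DDX18 and DDX3X are red on the mimic arrays and blue on the negative control arrays, and the rows of DHX37 and DHX40 are blue on the mimic arrays.

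Against mock, fewer helicases differed. The mimic was lower for 2 of the 43 genes other than DDX3X (DHX37 and DHX40) and higher for 0 (4 at an unadjusted p below 0.05 with limma). This was 4.65%, where 2.88% of all tested genes fell and 1.35% rose (4.22% in all). With DDX3X it would be 3 of 44. Falls made up 68.1% of the calls over all genes. Median centring raised this to 80.2%, and the table of log2 values from the authors to 87.6%. The median change was 0.010 for the 43 genes, and 0.0071 for all genes. DHX37 changed by -0.54 ± 0.086 (adjusted p = 0.0195) and DHX40 by -0.59 ± 0.098 (adjusted p = 0.0225). The second probe of DHX40 had a change of -0.32 ± 0.10 in the same direction (adjusted p = 0.153).

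Neither call stood under every left-out array. That of DHX37 was lost without mimic array 2 or 3, mock array 1 or mock array 2 (adjusted p = 0.0543 to 0.104), and that of DHX40 without mimic array 1 or 3 or mock array 2 (adjusted p = 0.0667 to 0.122). DHX40 was also lost under median centring and in the authors' table of log2 values. The change of DDX3X ran from 0.22 to 0.35 with 1 array left out. The remaining genes that passed against the negative control did not pass against mock. Examples are DDX10 (0.13 ± 0.082, adjusted p = 0.473), DDX21 (-0.49 ± 0.11, adjusted p = 0.0634) and DDX56 (-0.28 ± 0.069, adjusted p = 0.0787), and the last of these had the sign opposite to its change against the negative control.

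Members that differed from both controls were counted as well. The mimic was lower than both for DHX37 and DHX40, 2 of the 43 where 2.26% of all tested genes were. Above both at the threshold were 0 of the 43, where 0.828% of all tested genes were. DDX3X was chosen for its rise with the mimic, so it is left out of this count. As a description, its change against mock was 0.12 to 0.37 over the alternatives in processing. With 1 array left out it was 0.22 to 0.35. In a looser count with no test, all 3 mimic arrays were below all 5 control arrays for 4 genes (DHX37, DDX21, DDX11 and DHX40), 9.3% where 9.13% of all tested genes were. Apart from DDX3X, they were above all 5 for 5 genes (DHX9, DDX49, DDX41, DHX38 and DHX57), 11.6% where 8.27% were. The first share is close to that of all genes, the second is above it, and the difference was not tested.

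The control groups also differed from each other. The negative control was lower than mock for 2 of the 43 genes other than DDX3X (DDX56 and DDX10) and higher for 0 (2 at an unadjusted p below 0.05 with limma). This was 4.65%, where 2.28% of all tested genes were lower and 1.61% higher (3.89% in all). Lower genes made up 58.6% of the calls over all genes. This share was 86.7% in the authors' table of log2 values and 90% after median centring. The median was -0.040 for the 43 helicases and 0.0025 for all genes, and 34.9% of the helicases had a positive change, where 51% of all genes did. DDX56 had a change of -0.64 ± 0.069 (adjusted p = 0.00787) and DDX10 one of -0.61 ± 0.082 (adjusted p = 0.0132). Both calls stood whichever array was left out, although DDX56 did not pass under median centring or in the table of the authors. The change of DDX3X, -0.45, was -0.38 without mock array 1.

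This comparison shares the negative control arrays with mimic against negative control, so the changes are set side by side without a test of their likeness. DDX10 changed by 0.74 for mimic minus negative control, 0.13 for mimic minus mock and -0.61 for negative control minus mock. DDX18 gave 0.54, 0.12 and -0.42 in the same order, and DHX32 gave 0.39, -0.0012 and -0.39. For these genes the negative control stood apart while mimic and mock lay close. DHX37 gave -0.61, -0.54 and 0.071, and DDX21 gave -0.47, -0.49 and -0.022. In this second group the mimic stood apart and the controls lay close. Whether the difference between the controls has a part in the rises was not tested.

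By role, a list held at most 2 calls in the comparisons with mock, and the differences between the shares were not tested. In mimic against mock, where 4.22% of all tested genes passed, the splicing list had 1 lower of 12 (8.33%, DHX40) and the ribosome list 1 lower of 15 (6.67%, DHX37), with medians of -0.0065 and 0.064. In negative control against mock, where 3.89% of all tested genes passed, the ribosome list had 2 lower of 15 (13.3%) and a median of -0.033. The splicing list had 0 calls there with limma (4 lower and 0 higher at an unadjusted p below 0.05) and a median of -0.043. The export, translation and decay list without DDX3X had 0 calls in either comparison (0 lower and 1 higher, and 2 lower and 0 higher, at an unadjusted p below 0.05 with limma). Its medians were 0.067 in mimic against mock and -0.11 in negative control against mock. The mitochondrial list and the list of other roles had 0 calls in both comparisons, with limma (0 and 1 lower in each, and 0 higher, at an unadjusted p below 0.05). Their medians were 0.10 and -0.040 in mimic against mock, and 0.041 and -0.083 in negative control against mock.

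Outside the DDX and DHX names, 13 other RNA helicases were tested, and 2 passed in mimic against negative control (15.4%, where 16.8% of all tested genes did). UPF1, of nonsense-mediated decay, fell with the mimic against the negative control (-0.23 ± 0.058, adjusted p = 0.0379), and HELZ rose (0.16 ± 0.041, adjusted p = 0.0424), with a median of -0.039 for the list. The call of UPF1 was lost without any 1 of the 8 arrays (adjusted p = 0.0501 to 0.108) and that of HELZ without any 1 of the mimic arrays or negative control array 1 or 2 (adjusted p = 0.087 to 0.128). EIF4A1, the DEAD-box helicase of translation initiation, was represented by its brighter probe, which had a change of -0.68 ± 0.21 (adjusted p = 0.0643). Its dimmer probe passed with nearly the same change (-0.70 ± 0.17, adjusted p = 0.0317). Against mock, and between the controls, limma called 0 of the 13 (2 lower and 1 higher, and 1 lower and 0 higher, at an unadjusted p below 0.05).

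Partners of the family were also read. Of 23 tested, 2 fell and 2 rose in mimic against negative control, 17.4% where 16.8% of all tested genes passed, and the median change was 0.10. GPATCH4, a G-patch cofactor of DHX15, fell (-0.72 ± 0.12, adjusted p = 0.00795). EDC3, which binds DDX6, fell (-0.33 ± 0.073, adjusted p = 0.025), while PATL1, another DDX6 partner, rose (0.29 ± 0.064, adjusted p = 0.0244). THOC5, of the export complex that works with the DDX39 helicases, rose as well (0.34 ± 0.066, adjusted p = 0.0147). Each of these calls was lost under median centring, and that of THOC5 also in the authors' log2 values. The call of EDC3 was lost without mimic array 1 or 2 or any 1 of the negative control arrays (adjusted p = 0.0532 to 0.0841), and that of PATL1 without mimic array 1 or 3 or negative control array 1 or 2 (adjusted p = 0.0714 to 0.0829).

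In mimic against mock, limma called 0 of the 23 partners by their brightest probe (1 lower and 3 higher at an unadjusted p below 0.05). GPATCH4 (-0.25 ± 0.13) and PATL1 (0.20 ± 0.071) kept the sign of their change against the negative control. EDC3 (0.098 ± 0.082) and THOC5 (-0.24 ± 0.074) had the opposite sign. The dimmer probe of GPATCH2, a G-patch protein, was higher than both controls. Its change was 0.34 ± 0.050 relative to the negative control (adjusted p = 0.00585) and 0.31 ± 0.055 relative to mock (adjusted p = 0.0279). The brighter probe of GPATCH2 changed in the same direction without passing. Its changes were 0.25 ± 0.087 relative to the negative control (adjusted p = 0.0953) and 0.33 ± 0.097 relative to mock (adjusted p = 0.117). Between the controls, 2 of the 23 passed (8.7%, where 3.89% of all tested genes did). The negative control was above mock for EDC3 (0.42 ± 0.082, adjusted p = 0.0387) and below it for THOC5 (-0.59 ± 0.074, adjusted p = 0.0121). The call of THOC5 was lost without mock array 1 (adjusted p = 0.079). That of EDC3 was lost without mimic array 2, mock array 1 or any 1 of the negative control arrays (adjusted p = 0.0605 to 0.2).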

How the data were processed

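Expression was measured on 1-colour (Cy5) 3D-Gene oligo chips. The deposited intensity of a spot is the median of its pixels at 635 nm, neither background-corrected nor normalized, per the file headers. A second table, of log2 values that the authors quantile normalized between arrays (R 3.1.2), served as an alternative. How background was corrected in it is not stated in the sources used here. On each array 11548 to 12825 of its values lay at its lowest value, 2.07, and array medians ran from 2.07 to 2.58.

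Background was estimated with normexp from 2680 blank spots (offset 50) and arrays were quantile normalized, in limma 3.58.1 and R 4.3.3 (jsonlite 2.0.0). Control spots were left out and 13 faulty probe spots set to missing. A linear model of the 3 group means used all 8 arrays (lmFit and eBayes, 5 residual and 2.36 prior degrees of freedom), which share 1 estimate of the spread. A gene was represented by its tested probe with the highest mean. Symbols of 2 members were updated from RefSeq. The 4224 probes without a symbol are unnamed here.

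Members, role lists and marker lists were chosen with earlier results of these data known, so lists are described by counts and medians only. Named genes were DDX3X, the genes past the threshold in a comparison, members with probes that disagree, and the brightest of each role list. Others, among them DDX6, DDX24, DDX41, DHX38 and DHX57, were added after their values were seen. Scripts were tested on simulated data. Alternatives covered background, offset, scaling, filter, variance model, samples in the fit, replicate number as a block, the methods' t-test, the probes counted and leaving out each array.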

Additional observations from a re-analysis of the deposited data

How the results depend on the processing

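Counts of helicases lower and higher, here with DDX3X included and as no test of it, were 4 and 9 for mimic against negative control, 2 and 1 for mimic against mock, and 3 and 0 for negative control against mock. They were the same with the mean of the blank spots subtracted, with probes above background on all arrays of a group, and with all probes of a gene counted. In the same order of comparisons they were 4 and 10, 3 and 1, and 4 and 1 with an offset of 16. Median centring gave 1 and 6, 1 and 0, and 1 and 0, and the authors' log2 values 1 and 2, 1 and 0, and 1 and 0. Testing every probe without a filter gave 1 and 4, 0 and 0, and 2 and 0. An intensity trend in the variance gave 4 and 11, 3 and 0, and 5 and 1, and fits of the 2 groups alone 4 and 10, 1 and 0, and 2 and 0. A background from pixels surrounding the spot (ring background) gave 0 in each count (at an unadjusted p below 0.05, 1 and 4, 0 and 1, and 0 and 0). It also turned the changes between mimic and negative control of DDX11 (0.21), GPATCH4 (0.24), THOC5 (-0.17) and UPF1 (0.0028), none of which passed there. The methods' t-test gave 0 and 4, 0 and 0, and 0 and 0 after Benjamini-Hochberg, and 0 in each count at the study's thresholds (at an unadjusted p below 0.05, 4 and 14, 4 and 3, and 9 and 1). With 1 array left out the counts ran from 1 to 4 and 6 to 10, from 0 to 2 and 0 to 1, and from 2 to 4 and 0 to 0. Leaving out 1 mock array assumes that the other varies like the arrays of the other groups. Deviations of arrays with the same replicate number correlated at 0.0246 to 0.1 in mimic against negative control and at -0.106 and -0.00366 in negative control against mock, but at 0.345 and 0.268 in mimic against mock. The last has only 2 pairs and no label ties the numbers together, so the numbers were not taken as pairs. With the replicate number as a block, 3 helicases were lower and 10 higher in mimic against negative control (9 of the 12 calls other than DDX3X shared with the fit without it), 0 and 0 in mimic against mock (4 and 5 at an unadjusted p below 0.05) and 2 and 0 in negative control against mock, where 70.7% of the calls over all genes were lower (58.6% without the block). The calls gained were DDX41, DDX47 and DHX16 and those lost DDX1, DDX11 and DHX32, all in mimic against negative control, while DHX37 and DHX40 were lost in mimic against mock. Over all genes, mimic against negative control had 1724 calls, and 0 with the ring background, 815 with median centring, 778 with the authors' log2 values, 1057 without a filter, 709 and 31 with the t-test, and 927 to 1884 with 1 array left out. Mimic against mock had 433, and under the same settings 0, 91, 129, 241, 2 and 8, and 111 to 336, with 655 under the trend, 169 in the 2 groups alone and 199 with the block. Negative control against mock had 399, and likewise 0, 80, 75, 159, 6 and 2, and 62 to 358, with 720, 150 and 123, and 633 with the offset of 16. In the authors' log2 values the median change of all tested probes was -0.115 in that last comparison. The causes of these differences were not tested. A slide block was not run because the file headers name no slide or scan. Dim probes limit what could be seen: 9 member probes were never above background, and the number of arrays limits the precision of the rest.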
